A study of Mus musculus with 31 samples.

Results

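The 9 genes described here make, use and carry serine and glycine: Phgdh, Psat1, Psph, Srr, Slc7a10, Slc6a9, Shmt1, Shmt2 and Gldc. They were taken by gene symbol from 55401 genes, and all 9 were found and passed the filter on low counts among 14490 genes tested. Their RNA was counted in 12 sequencing libraries from sorted astrocytes of C57Bl/6 mice labelled female and aged 10 weeks, 3 libraries in each of 4 groups. In the 2X cytokine group mice received IL-1β at 100 ng/mL with TNF-α at 50 ng/mL into the lateral ventricles and the same again on day 7, and in the 2X PBS group PBS both times. In the 1X cytokine and 1X PBS groups the only injection was on day 7, with the same cytokines or with PBS. Astrocytes were sorted 18 to 24 hours after the last injection. A short label of the cytokine libraries names TNF-α alone, the labels' growth protocol names male and female mice of 10 to 12 weeks, and no source used here names the markers of the sort. The titles of all 12 libraries carry the term SPF, which usually means specific pathogen free. The labels give no transgene, deletion or other treatment for these libraries. They do not say whether a library is 1 mouse, so the spread that p-values rest on may be technical.

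L-serine is made from the glycolytic intermediate 3-phosphoglycerate by Phgdh, Psat1 and Psph in turn, and in the brain astrocytes are its main source for neurons, which make little of it. Serine racemase (Srr) turns L-serine into D-serine, a co-agonist of the NMDA-type glutamate receptor that binds at the same site as glycine. The serine hydroxymethyltransferases Shmt1 and Shmt2 convert serine to glycine with transfer of a carbon unit to folate, and Gldc is the decarboxylating subunit of the mitochondrial glycine cleavage system. Slc7a10 (asc-1) exchanges small neutral amino acids, D-serine and glycine among them, and Slc6a9 (GlyT1) takes up glycine.

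The genes lie on 7 chromosomes of GRCm38. Phgdh is at chr3:98313170-98339990 on the minus strand, Slc6a9 at chr4:117834506-117875198 on the plus strand, Psph at chr5:129765558-129787449 on the minus strand and Slc7a10 at chr7:35186385-35201114 on the plus strand. Shmt2 is at chr10:127517123-127522444, Shmt1 at chr11:60788104-60811718, Srr at chr11:74906359-74925948, Psat1 at chr19:15904678-15947337 and Gldc at chr19:30098447-30175429, all on the minus strand. The promoters of 4 genes that were higher together in one comparison below, and of Shmt2, which held nearly the same level in every library, are shown for reading side by side. Each window is RefSeq sequence of GRCm38.p6, 300 bases from 250 before to 50 after a RefSeq transcript start, on the strand of the gene. Capitals mark a GC box (GGGCGG) or a CCAAT box (CCAAT) on either strand.

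Phgdh, chr3:98339920-98340219, minus strand: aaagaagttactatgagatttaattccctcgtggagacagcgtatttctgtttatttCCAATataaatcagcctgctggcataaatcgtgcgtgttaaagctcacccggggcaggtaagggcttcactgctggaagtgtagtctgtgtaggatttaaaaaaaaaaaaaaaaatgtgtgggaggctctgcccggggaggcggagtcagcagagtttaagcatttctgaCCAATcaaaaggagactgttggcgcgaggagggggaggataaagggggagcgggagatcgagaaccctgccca
Psat1 upstream start, chr19:15925010-15925309, minus strand: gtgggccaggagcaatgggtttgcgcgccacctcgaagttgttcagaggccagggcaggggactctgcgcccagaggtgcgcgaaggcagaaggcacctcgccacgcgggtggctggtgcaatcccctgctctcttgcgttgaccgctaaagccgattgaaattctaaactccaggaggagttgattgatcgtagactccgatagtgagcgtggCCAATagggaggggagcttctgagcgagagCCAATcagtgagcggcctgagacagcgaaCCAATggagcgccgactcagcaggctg
Psat1 downstream start, chr19:15924573-15924872, minus strand: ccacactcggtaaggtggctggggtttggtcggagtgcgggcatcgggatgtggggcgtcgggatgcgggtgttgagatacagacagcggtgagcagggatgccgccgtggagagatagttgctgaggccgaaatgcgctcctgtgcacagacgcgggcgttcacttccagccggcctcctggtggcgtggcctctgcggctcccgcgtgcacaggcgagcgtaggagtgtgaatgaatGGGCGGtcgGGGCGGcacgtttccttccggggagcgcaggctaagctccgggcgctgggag
Slc7a10, chr7:35186135-35186434, plus strand: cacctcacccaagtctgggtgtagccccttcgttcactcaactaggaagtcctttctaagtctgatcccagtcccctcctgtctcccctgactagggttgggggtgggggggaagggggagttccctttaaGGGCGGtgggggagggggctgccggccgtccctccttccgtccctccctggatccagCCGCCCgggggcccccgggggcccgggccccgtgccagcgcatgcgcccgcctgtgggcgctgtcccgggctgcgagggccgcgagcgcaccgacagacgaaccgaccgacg
Gldc, chr19:30175392-30175691, minus strand: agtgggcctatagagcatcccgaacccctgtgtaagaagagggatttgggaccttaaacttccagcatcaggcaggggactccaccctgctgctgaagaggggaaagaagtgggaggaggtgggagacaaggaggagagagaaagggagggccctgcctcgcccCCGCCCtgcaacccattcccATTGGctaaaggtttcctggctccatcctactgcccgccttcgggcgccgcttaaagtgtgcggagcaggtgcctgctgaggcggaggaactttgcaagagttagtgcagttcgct
Shmt2, chr10:127522395-127522694, minus strand: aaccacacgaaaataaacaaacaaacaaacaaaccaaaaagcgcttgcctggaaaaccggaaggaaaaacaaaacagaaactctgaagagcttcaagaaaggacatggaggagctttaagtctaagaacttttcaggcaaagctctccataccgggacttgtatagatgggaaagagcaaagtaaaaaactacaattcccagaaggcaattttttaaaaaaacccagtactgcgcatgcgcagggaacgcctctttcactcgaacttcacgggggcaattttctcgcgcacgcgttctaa

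A set of 4 motifs was searched on both strands in the 12 RefSeq windows of the 9 genes: the C/EBP-ATF element TGATGNAA, the E-box CACGTG, the GC box and the CCAAT box, the last of which was added after the sequences were seen. Neither TGATGNAA nor CACGTG occurred in any of the 12 windows. Over all 32851 mouse promoter windows of 300 bases, 3.97% held TGATGNAA, 7.15% CACGTG, 35.7% a GC box and 37.4% a CCAAT box. The Phgdh window held 2 CCAAT boxes, with first bases at -193 and -23 from the start base, and the upstream Psat1 window held 3, at -36, -6 and 23. The downstream Psat1 window had no CCAAT box and 2 GC boxes, and the Slc7a10 window also had 2 GC boxes and no CCAAT box. Gldc had 1 of each, and Shmt2 had neither. The share of a gene's TPM (counts per transcript length, scaled to a fixed sum per library) carried by transcripts that start within 500 bases of the start base was 98.5% for Phgdh, 92.1% for Slc7a10, 98.2% for Gldc and 97.7% for Shmt2. For Psat1 it was 61.8% at the downstream start and 32.5% at the upstream one. Each transcript was counted only at the nearest RefSeq start of its gene. The leading Slc6a9 transcript starts 752 bases from the nearest RefSeq start base of that gene, so no Slc6a9 window is shown.

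The libraries did not fall by label alone, which bears on every comparison below. Library totals ran from 1878418 to 5521679 estimated counts. Lcn2, an acute-phase gene of reactive astrocytes, had a CPM (each gene's count on the scale of a common library size) of 15.0, 2.26 and 1.20 in the libraries labelled 2X cytokine, against 570, 363 and 425 in those labelled 2X PBS. It had 797, 11.5 and 3.85 in those labelled 1X cytokine, against 5.33, 1076 and 776 in those labelled 1X PBS. Lcn2 was thus high in the libraries labelled 2X PBS and low in those labelled 2X cytokine, and the first library of each 1X label stood apart from the other two libraries. Gfap, the astrocyte intermediate filament gene, had 150, 119 and 113 CPM in 2X cytokine against 1141, 1043 and 1095 CPM in 2X PBS. Inflammatory cytokines are known to induce Lcn2 in astrocytes, and in the 2X groups it was lower under the cytokine label. In replicates 2 and 3 of the 1X groups it was lower under the cytokine label as well. Only in replicate 1 of the 1X groups was it higher under the cytokine label (797 against 5.33 CPM). Each group keeps the name on its labels, and every direction below holds for those names only. Whether the labels match the injections given was not tested, and an exchange of labels would turn the directions of cytokine over PBS. All 10 astrocyte markers were detected in every library. Of 9 neuronal markers 1, Slc17a7, was at 0 in all 12 libraries, while Tubb3 had 62.5 to 133 CPM. The 9 neuronal markers summed to 117 to 185 CPM, and the choroid plexus marker Ttr had 3632 to 27229 CPM, so RNA of other cell types was present.

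The transporter Slc7a10 and the first enzyme Phgdh led the pathway when levels were compared between genes per transcript length. Slc7a10 had a median of 509 TPM over the 12 libraries (145 to 763) and lay above Phgdh in 9 of 12. Phgdh had 324 TPM (124 to 533) and lay above Slc6a9 in all 12. Slc6a9 had 273 TPM (90.2 to 401) and lay above Psat1, at 166 TPM (91.4 to 226), in 9 of 12. These 4 genes formed an upper tier, since Psat1 lay above the next gene in every library. Psph had 57.9 TPM (30.3 to 84.5), Shmt2 38.7 TPM (32.3 to 42.8) and Srr 32.2 TPM (16.0 to 39.7), with each above the next in 11 of 12 libraries. Gldc had 16.8 TPM (4.33 to 22.4) and was below Srr in all 12, and Shmt1 came last with 4.50 TPM (2.02 to 11.2). Except for Psat1 and Psph, neighbours in this order overlapped in their ranges over libraries, so the order rests on the comparison within each library. Within the synthetic route the last enzyme, Psph, was therefore the lowest of its enzymes, and of the glycine-forming enzymes the mitochondrial Shmt2 exceeded the cytosolic Shmt1 in every library.

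**Figure D1:**
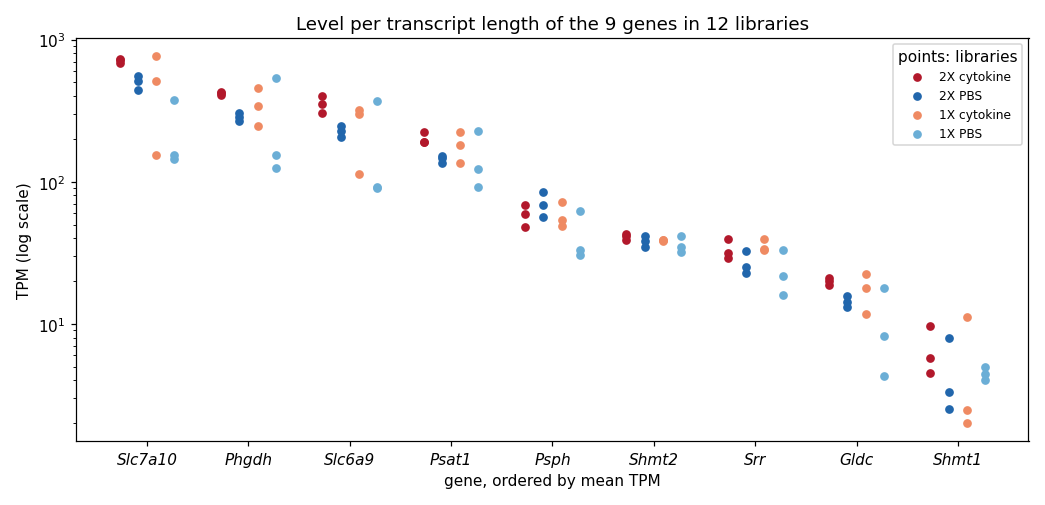
TPM of the 9 genes (log axis) in each of 12 libraries, genes ordered by mean TPM and coloured by group. Slc7a10, Phgdh, Slc6a9 and Psat1 lie above the other 5 genes in median, and the 3 libraries labelled 2X cytokine lie above the 3 labelled 2X PBS for each of these 4.

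Summed over the 9 genes, TPM came to 1937, 1835 and 1751 in 2X cytokine, against 1328, 1325 and 1285 in 2X PBS. The sums were 801, 1516 and 1897 in 1X cytokine, against 1665, 623 and 541 in 1X PBS. The 2X groups did not overlap in this sum, and the 1X groups did. The libraries labelled 1X cytokine replicate 1 and 1X PBS replicates 2 and 3, which were the 3 highest in Lcn2, had the 3 lowest sums.

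Synthesis enzymes came first in the repeated-injection comparison, which asks what cytokine instead of PBS at both injections changed. Phgdh had a CPM of 506, 482 and 467 in 2X cytokine, against 335, 318 and 367 in 2X PBS. Psat1, the aminotransferase of the second step, had a CPM of 334, 295 and 289 in 2X cytokine, against 204, 209 and 227 in 2X PBS. Every 2X cytokine library lay above every 2X PBS library for both genes. Psph, the phosphatase of the last step, had a CPM of 46.8, 37.7 and 42.3 in 2X cytokine, against 37.2, 45.1 and 53.0 in 2X PBS. Those Psph values overlapped, with the highest in a 2X PBS library. The means were 485 ± 19.2 and 340 ± 24.5 CPM for Phgdh and 306 ± 24.3 and 213 ± 11.7 CPM for Psat1 (2X cytokine, then 2X PBS; SD, n = 3 each).

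Both carriers were also higher in 2X cytokine. Slc7a10 had a CPM of 815, 773 and 737 in 2X cytokine, against 592, 574 and 534 in 2X PBS. Slc6a9 had a CPM of 692, 596 and 554 in 2X cytokine, against 387, 440 and 409 in 2X PBS. Neither gene's groups overlapped. Srr, which makes D-serine, had a CPM of 57.1, 59.5 and 51.3 in 2X cytokine, against 57.1, 49.1 and 51.5 in 2X PBS, and its groups overlapped.

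Of the enzymes that use serine or glycine, Gldc was higher and the hydroxymethyltransferases overlapped. Gldc had a CPM of 53.6, 46.0 and 49.2 in 2X cytokine, against 32.2, 39.3 and 37.0 in 2X PBS. Shmt2 had a CPM of 54.6, 45.2 and 46.8 in 2X cytokine, against 50.8, 51.1 and 49.2 in 2X PBS. Shmt1 had a CPM of 5.71, 3.39 and 7.20 in 2X cytokine, against 4.66, 4.05 and 3.26 in 2X PBS. The Gldc groups were apart, Shmt2 stayed near one level, and Shmt1 rested on few reads, 4 to 27 per library over the 12 libraries. In all, 5 of 9 genes were higher in 2X cytokine with no overlap, where 11.2% of all 14490 genes were, and 0 were lower with no overlap, where 14.1% of all genes were.

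**Figure D2:**
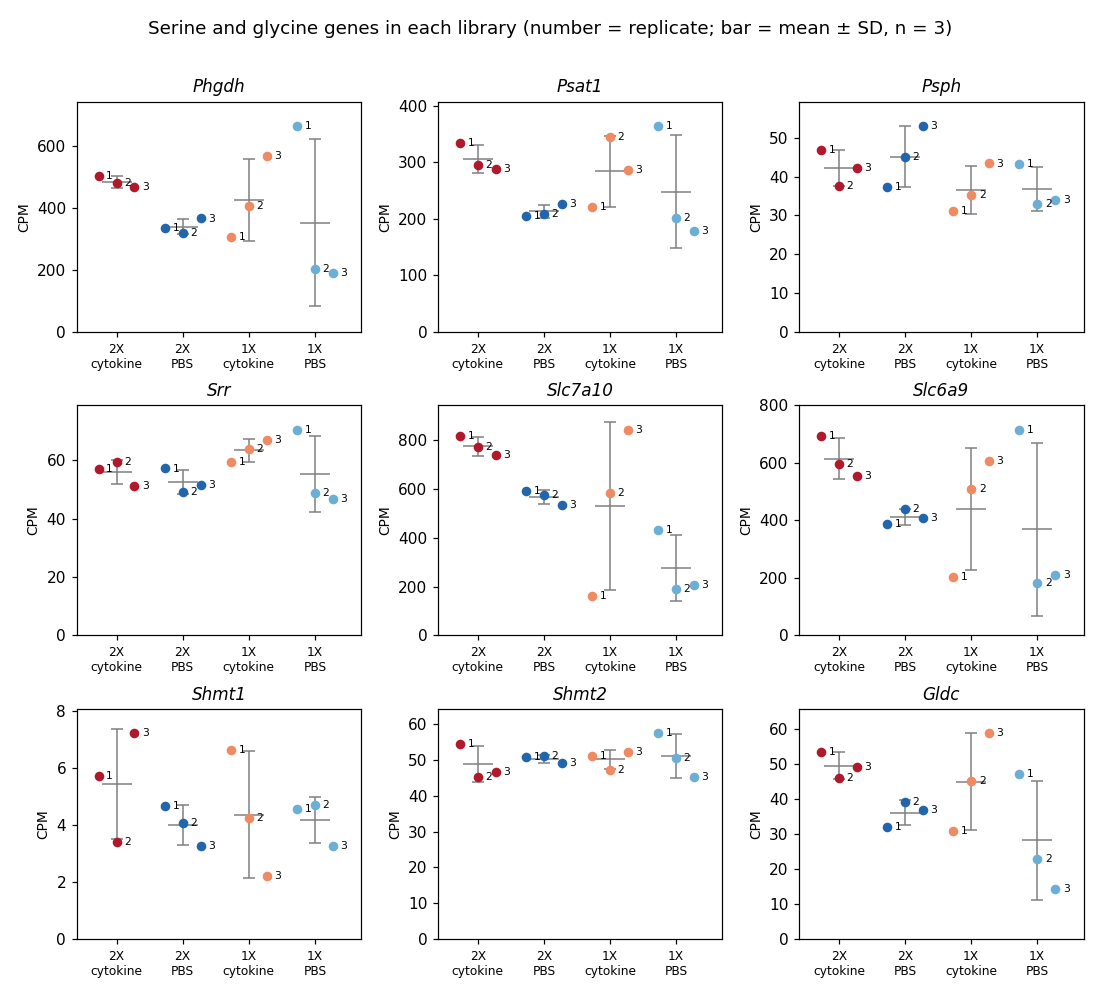
CPM of each gene in each library (linear axes from 0), in the order 2X cytokine, 2X PBS, 1X cytokine, 1X PBS, with the mean and SD of 3 libraries in grey and the replicate number beside each point. Phgdh, Psat1, Slc7a10, Slc6a9 and Gldc separate the 2X groups, while the 1X groups spread over most of each gene's range.

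Whether these differences passed the test depended on which libraries gave the estimate of spread. With all 12 libraries in one edgeR quasi-likelihood fit, 0 of 9 genes passed an adjusted p of 0.05, 0 fell under 0.05 before adjustment, and DESeq2 on the same 12 libraries also called 0. In that fit 0.0345% of all genes passed. With the 6 libraries of the comparison alone, 5 of 9 passed, all higher in 2X cytokine, where 7.74% of 13765 genes passed (2.43% higher and 5.31% lower). The estimated variation between replicates (the biological coefficient of variation) was 0.237 with 12 libraries and 0.114 with these 6.

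In the fit of 6 libraries the log2 fold changes, 2X cytokine over 2X PBS, lay close together. That of Slc6a9 was 0.58 ± 0.10 (SE), with an edgeR adjusted p of 0.00404. Psat1 changed by 0.53 ± 0.09 (edgeR adjusted p = 0.0037) and Phgdh by 0.52 ± 0.09 (edgeR adjusted p = 0.00321). Slc7a10 changed by 0.46 ± 0.09 (edgeR adjusted p = 0.0066) and Gldc by 0.45 ± 0.12 (edgeR adjusted p = 0.0459). In the fit of 12 libraries the same 5 genes had log2 fold changes of 0.57 ± 0.48, 0.52 ± 0.25, 0.51 ± 0.40, 0.45 ± 0.46 and 0.45 ± 0.34, so the estimates were nearly equal and the errors larger. Their edgeR adjusted p-values there ran from 0.540 for Psat1 to 0.838 for Slc7a10. Over the 9 genes the median log2 fold change was 0.45, against -0.00 over all genes, and 7 of 9 were positive, against 49.5% of all genes.

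The other 4 genes did not pass in the fit of 6 libraries. Shmt2 had a log2 fold change of -0.03 ± 0.11 and Srr of 0.11 ± 0.11, and their edgeR adjusted p-values were 0.915 and 0.656. Psph had -0.09 ± 0.14 and Shmt1 0.49 ± 0.37, with edgeR adjusted p-values of 0.779 and 0.523. The interval of Shmt1 was the widest of the 9 genes.

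**Figure D3:**
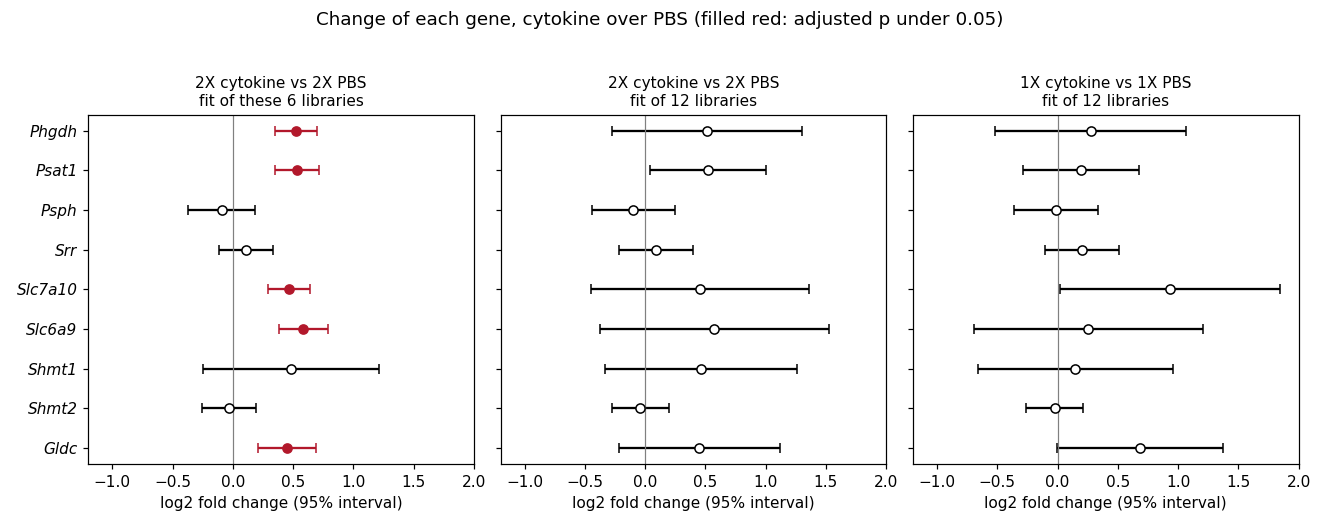
Log2 fold change of each gene, cytokine over PBS, as a point with a bar of 1.96 SE to each side, for the 2X groups in the fit of 6 and of 12 libraries and for the 1X groups in the fit of 12. Filled red points, which are Phgdh, Psat1, Slc7a10, Slc6a9 and Gldc in the fit of 6, have an adjusted p under 0.05.

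The call was steadier for 4 of the 5 genes than for Gldc. Over 13 other settings of the fit of 6 libraries, chosen after the data were seen and including the loss of each library in turn, Phgdh passed in 13 and Psat1, Slc7a10 and Slc6a9 in 12, while Gldc passed in 1. The setting in which those 3 genes did not pass was limma-trend on log2(TPM + 1), where Phgdh alone passed and 1.85% of genes passed. With all libraries and sample quality weights (voom) 1 of 9 passed, Psat1, where 3.13% of genes did.

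Markers of cell types moved with the same comparison. In the fit of 6 libraries 7.74% of all 13765 genes passed, 2.43% higher and 5.31% lower. The summed CPM of 10 astrocyte markers ran from 22204 to 26068 in 2X cytokine and from 19573 to 21888 in 2X PBS, with no overlap, and 2 of the 10 passed in the fit of 6 libraries, both higher. Of the 10, 7 had a positive log2 fold change in the fit of 12 libraries, against 49.5% of all genes. With no overlap 4 of the 10 were higher, where 11.2% of all genes were, and 0 were lower, where 14.1% were. The 8 oligodendrocyte markers summed to 5525 to 6646 CPM in 2X cytokine, against 2931 to 4221 CPM in 2X PBS, and 6 of 8 passed, all higher. The 9 monocyte and neutrophil markers summed to 12.3 to 141 CPM in 2X cytokine, against 539 to 563 CPM in 2X PBS, and 5 of 6 tested passed, all lower. The 8 reactive astrocyte markers summed to 1188 to 1321 CPM in 2X cytokine, against 3896 to 4857 CPM in 2X PBS, and 7 of 8 passed, all lower. Other lists overlapped between the 2X groups in their sums, among them 8 microglial markers (361 to 699 CPM in 2X cytokine, against 630 to 904 CPM in 2X PBS, 3 lower) and 6 choroid plexus markers (3830 to 14368 CPM in 2X cytokine, against 13596 to 15741 CPM in 2X PBS, 0 called by edgeR). The part of these shifts in the results on serine and glycine genes was not tested, and in bulk libraries fewer cells of a type and less RNA per cell cannot be told apart.

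Set against the astrocyte markers of the same library, a scale added after the data were seen, the 5 genes separated the 2X groups. Among the 10 markers Aldoc and Slc1a3 reached the highest levels, 8604 and 8224 CPM, so the scale rests most on these. Per 1000 CPM of summed astrocyte markers, Phgdh had 20.6 ± 1.16 CPM in 2X cytokine and 16.6 ± 0.541 CPM in 2X PBS, and Slc6a9 had 26.0 ± 1.21 CPM in 2X cytokine, against 20.2 ± 1.79 CPM in 2X PBS (SD, n = 3 each). Psat1 was 1.24 times, Slc7a10 1.18 times and Gldc 1.19 times as high in 2X cytokine on this scale. Psph and Shmt2 were lower in 2X cytokine with no overlap, at 0.814 and 0.837 times the 2X PBS mean, while Srr and Shmt1 overlapped. On this scale 2.84% of all genes were higher and 28.1% lower in 2X cytokine with no overlap.

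The comparison of the 1X groups asks what cytokine instead of PBS at a single injection changed, and here the libraries of one label disagreed. Slc7a10 had a CPM of 161, 585 and 842 in 1X cytokine, against 432, 190 and 209 in 1X PBS. Slc6a9 had a CPM of 203, 510 and 607 in 1X cytokine, against 715, 182 and 209 in 1X PBS. Phgdh had a CPM of 306, 406 and 569 in 1X cytokine, against 665, 204 and 192 in 1X PBS. For all 3 genes the first library of each label lay on the far side of its group, low in 1X cytokine and high in 1X PBS. Gldc had a CPM of 31.0, 45.3 and 58.8 in 1X cytokine, against 47.2, 23.0 and 14.4 in 1X PBS, and Psat1 had 220, 344 and 287 in 1X cytokine, against 364, 202 and 179 in 1X PBS. These also overlapped between the labels.

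Srr, Psph and Shmt2 spread less between the 1X libraries. Srr had a CPM of 59.2, 63.7 and 67.0 in 1X cytokine, against 70.4, 48.8 and 46.6 in 1X PBS. Psph had a CPM of 31.2, 35.3 and 43.4 in 1X cytokine, against 43.4, 33.0 and 34.1 in 1X PBS. Shmt2 had a CPM of 51.1, 47.2 and 52.2 in 1X cytokine, against 57.4, 50.7 and 45.2 in 1X PBS. The highest of the 12 values was 1.27 times the lowest for Shmt2, 1.51 times for Srr and 1.70 times for Psph, compared with 5.22 times for Slc7a10, 4.09 times for Gldc, 3.93 times for Slc6a9 and 3.47 times for Phgdh. Shmt1 had a CPM of 6.64, 4.22 and 2.20 in 1X cytokine, against 4.56, 4.71 and 3.25 in 1X PBS, at low counts.

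By edgeR 0 of 9 genes passed between the 1X groups, and 0% of genes passed in the fit of 12 libraries and in that of these 6. No member fell under 0.05 before adjustment, DESeq2 called 0 members, and 783 of all genes had an unadjusted p under 0.05. The largest log2 fold changes, 1X cytokine over 1X PBS, were 0.93 ± 0.47 for Slc7a10 and 0.69 ± 0.35 for Gldc (SE; edgeR adjusted p = 0.866 for both). Phgdh had 0.27 ± 0.40, and the groups of all 9 genes overlapped, where 2.89% of all genes were higher and 3.29% lower with no overlap.

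Without the first library of each 1X label, 6 of 9 genes passed, all higher in 1X cytokine, where 23.5% of all genes passed. The log2 fold changes were then 1.86 for Slc7a10, 1.54 for Slc6a9, 1.50 for Gldc, 1.32 for Phgdh, 0.75 for Psat1 and 0.48 for Srr. Their edgeR adjusted p-values ran from 1.56e-06 for Slc7a10 to 0.0171 for Srr. The 2 libraries were left out because they stood apart in the measured genes, so these values describe the remaining 2 against 2 libraries and give no independent support. In Lcn2 the 2 left out were the 1X libraries high under cytokine (797 CPM) and low under PBS (5.33 CPM). Without 1X PBS replicate 1 alone, 2 genes passed, Phgdh at 1.13 (edgeR adjusted p = 0.0145) and Gldc at 1.27 (edgeR adjusted p = 0.0183), where 7.55% of genes passed. With sample quality weights on all libraries (voom), the 5 genes of the 2X comparison passed, where 12.3% of genes did. For the 2X groups 4 of 9 passed when the same 2 libraries were left out of the fit of all libraries, Phgdh, Psat1, Slc7a10 and Slc6a9, where 7.02% of genes did.

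**Figure D4:**
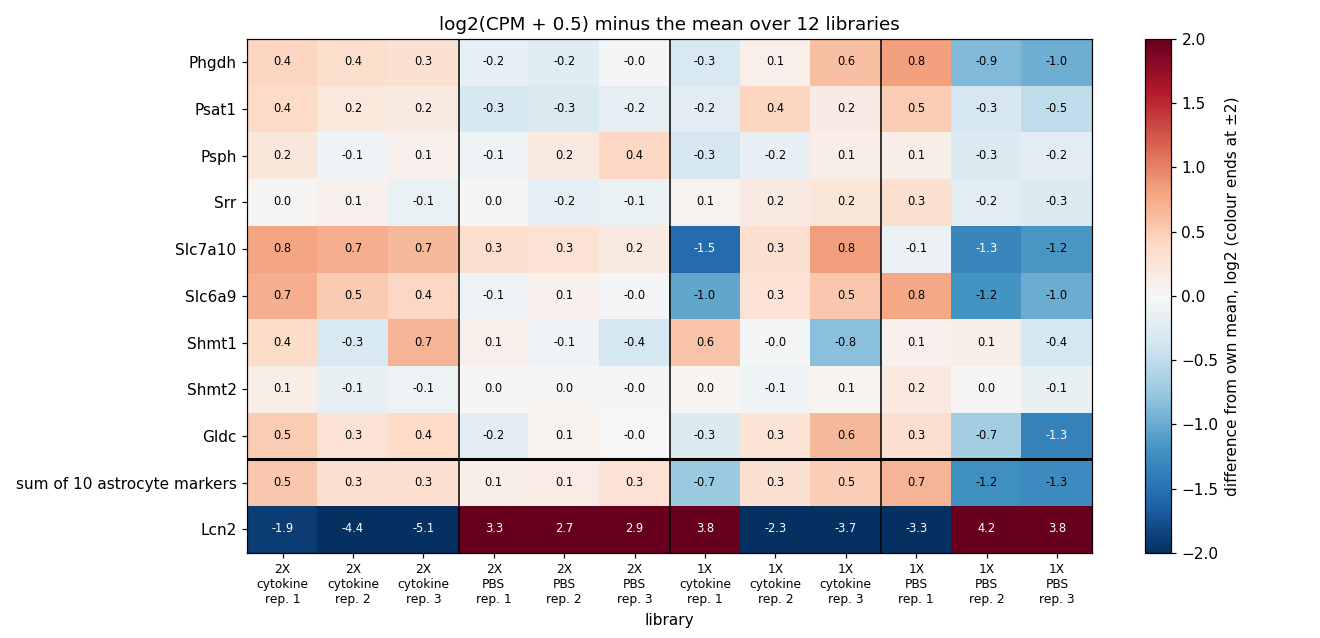
log2(CPM + 0.5) minus the mean over 12 libraries for the 9 genes, the sum of 10 astrocyte markers and Lcn2, 1 column per library (red above the gene's own mean, blue below, colour ending at 2). The libraries labelled 1X cytokine replicate 1 and 1X PBS replicates 2 and 3 are blue for Slc7a10, Slc6a9, Phgdh, Gldc and the astrocyte markers and red for Lcn2, and Shmt2 is pale throughout.

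The astrocyte marker sum varied in the same 1X libraries as Slc7a10, Slc6a9 and Phgdh. It was 10648 to 25062 CPM in 1X cytokine and 7354 to 28717 CPM in 1X PBS, lowest in 1X PBS replicates 2 and 3 and 1X cytokine replicate 1. Per 1000 CPM of these markers, Phgdh ran from 18.3 to 28.7 CPM in 1X cytokine and from 23.2 to 26.5 in 1X PBS, and over all 12 libraries its highest value was 1.79 times its lowest. For Slc6a9 that ratio was 1.52, for Gldc 1.83 and for Slc7a10 2.31, all smaller than in plain CPM. For Psat1 it was 2.55, against 2.03 in plain CPM, and for Shmt2 3.30, against 1.27. Psph, Srr and Shmt1 also had a larger ratio on this scale than in plain CPM. The monocyte and neutrophil markers summed to 36.3 to 648 CPM in 1X cytokine and 39.9 to 2157 CPM in 1X PBS. Erythrocyte markers summed to 924 to 7508 CPM in 1X cytokine and 6000 to 64766 CPM in 1X PBS. Their part in the 1X results was not tested.

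Number of injections was compared within each treatment. These comparisons share their libraries with those above. Slc7a10 averaged 775 ± 39.2 CPM in 2X cytokine and 529 ± 344 CPM in 1X cytokine (SD, n = 3 each). Slc6a9 averaged 614 ± 71.0 CPM in 2X cytokine and 440 ± 211 CPM in 1X cytokine. The SD of the 1X group exceeded the difference for both genes. Their log2 fold changes, 2X over 1X cytokine, were 0.55 ± 0.46 and 0.48 ± 0.48, and edgeR called 0 of 9 genes with 12 libraries, where 0.0276% of all genes passed, and 0 of 9 with these 6. None of the 9 fell under 0.05 before adjustment, DESeq2 called 0, and no member's groups were apart, where 5.71% of genes were higher and 6.76% lower with no overlap. Without the first 1X libraries 0 of 9 passed, where 0.0202% of genes did.

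Between the PBS groups Slc7a10 was the 1 gene whose libraries did not overlap, higher in 2X PBS. It averaged 566 ± 29.9 CPM in 2X PBS and 277 ± 135 CPM in 1X PBS (SD, n = 3 each), and its lowest 2X PBS library, at 534, lay above its highest 1X PBS library, at 432. Among all genes 5.4% were higher and 6.05% lower in 2X PBS with no overlap. The log2 fold change was 1.03 ± 0.47, with an unadjusted edgeR p of 0.0475 and an adjusted p of 0.776. By edgeR 0 of 9 genes passed in either fit, where 0% of genes did, and by DESeq2 0, and Slc7a10 was the 1 gene with an unadjusted p under 0.05. Phgdh had a log2 fold change of -0.05 ± 0.40 with all libraries and 0.80 without 1X PBS replicate 1, and its sign was the same in 16 of 23 alternatives, so these data give it no direction. Without 1X PBS replicate 1, 2 of 9 genes passed, Phgdh and Gldc (7.39% of genes). Without the first library of each 1X label, Phgdh, Slc7a10, Slc6a9 and Gldc passed, all higher in 2X PBS, where 18.6% of genes passed, and the same 4 passed with sample quality weights, again where 18.6% did.

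The difference of the responses, the cytokine effect at 2X minus that at 1X, was tested as an interaction in the fit of 12 libraries. By edgeR 0 of 9 genes passed, 0 fell under 0.05 before adjustment, and DESeq2 called 0. Over all 14490 genes 0% passed by edgeR, with 754 under 0.05 before adjustment, and 13 genes passed by DESeq2. The difference was -0.48 ± 0.65 for Slc7a10, 0.24 ± 0.57 for Phgdh and 0.32 ± 0.68 for Slc6a9. Each of those errors was larger than the difference itself. Without the first library of each 1X label 4 of 9 genes passed, where 9.33% of all genes did, with differences of -1.39 for Slc7a10, -1.05 for Gldc, -0.95 for Slc6a9 and -0.80 for Phgdh, so Phgdh and Slc6a9 changed direction. Without 1X PBS replicate 1 alone the difference was -0.61 for Phgdh and -0.60 for Slc6a9, and neither passed.

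The course of the genes over the 12 libraries was compared by the root mean square difference of their log2(CPM + 0.5), each centred on its own mean. Among the 9 genes it was lowest for Srr and Shmt2, at 0.16, and for Psph and Shmt2, at 0.21. It was 0.22 for Phgdh and Gldc and 0.28 for Phgdh and Slc6a9. Slc7a10 and Slc6a9 differed by 0.36, and Psat1 and Srr by 0.23. This difference is small for any 2 genes that hardly vary. The root mean square of a gene's own centred values was 0.10 for Shmt2, 0.18 for Srr and 0.22 for Psph. It was 0.33 for Psat1, 0.53 for Phgdh, 0.54 for Gldc, 0.67 for Slc6a9 and 0.82 for Slc7a10. The low differences among Shmt2, Srr and Psph thus do not show a shared course. Over 10494 other protein-coding genes with a mean of at least 10 CPM, those closest to Phgdh were Wscd1 at 0.08, Pmm1 at 0.12 and Pigs at 0.13, where the median gene was at 0.56. Those closest to Slc7a10 were Garem2 at 0.22, Acsl3 at 0.25 and Fgfr3 at 0.26, where the median gene was at 0.84. For Psat1 they were Cnp at 0.11, Wipi1 at 0.12 and Mfsd8 at 0.13, where the median gene was at 0.40. Cnp is 1 of the 8 oligodendrocyte markers above. Wscd1 had 397, 371 and 349 CPM in 2X cytokine, against 248, 237 and 287 CPM in 2X PBS, and 218, 328 and 382 CPM in 1X cytokine, against 499, 173 and 149 CPM in 1X PBS. As for Phgdh, the lowest 2 of the 12 values were in 1X PBS replicates 2 and 3 and the highest in 1X PBS replicate 1.

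Genes next to the pathway were taken from 5 lists, read here in the fit of the 6 libraries of the 2X comparison. In that fit 7.74% of all 13765 genes passed, 2.43% higher and 5.31% lower. In the fit of 12 libraries 0 genes of these lists passed in any comparison, and in the fits of 6 libraries passing genes occurred in the 2X comparison alone. Of 13 tested genes that break down or convert serine and glycine, 3 passed, all higher in 2X cytokine. Dao, the D-amino acid oxidase that degrades D-serine, averaged 32.0 ± 6.00 CPM in 2X cytokine and 15.3 ± 3.91 CPM in 2X PBS (log2 fold change 1.04 ± 0.20, edgeR adjusted p = 0.00702). Amt, the aminomethyltransferase of the glycine cleavage system, averaged 69.4 ± 7.95 CPM in 2X cytokine and 50.0 ± 6.32 CPM in 2X PBS (0.47 ± 0.13, edgeR adjusted p = 0.0459). Gatm, which uses glycine in creatine synthesis, averaged 239 ± 5.71 CPM in 2X cytokine and 190 ± 4.64 CPM in 2X PBS (0.34 ± 0.08, edgeR adjusted p = 0.0247). The other subunits of the cleavage system had log2 fold changes of 0.02 ± 0.11 for Gcsh and -0.03 ± 0.10 for Dld and did not pass.

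Among 13 tested other carriers, 1 passed and was lower, a share near that of all genes in this fit (7.74%). Slc1a4 (ASCT1), a neutral amino acid carrier that takes serine, averaged 347 ± 7.55 CPM in 2X cytokine and 602 ± 80.1 CPM in 2X PBS (log2 fold change -0.78 ± 0.10, edgeR adjusted p = 0.000642). It was thus opposite in direction to Slc7a10 and Slc6a9. Slc38a2 had -0.31 ± 0.10 and Slc38a1 0.43 ± 0.17, and neither passed. Among 7 tested glycolytic enzymes around 3-phosphoglycerate, Eno1 passed, at 1504 ± 93.6 CPM in 2X cytokine and 1138 ± 124 CPM in 2X PBS (0.41 ± 0.10, edgeR adjusted p = 0.0249). Eno1 has near-identical copies in the genome, so its count is uncertain. Gapdh at 0.14 ± 0.09 and Pgk1 at -0.01 ± 0.09 did not pass.

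Genes of folate one-carbon metabolism, in which folate carries the carbon unit released by Shmt1, Shmt2 and Gldc, gave 0 of 17 past the threshold in the edgeR fit of 6 libraries. Besides enzymes this list holds the folate receptor Folr1 and the carriers Slc19a1 and Slc25a32. Folr1 is also 1 of the choroid plexus markers above and had -0.56 ± 0.24. Mthfd1 had 0.21 ± 0.10 and Aldh1l1, an astrocyte folate enzyme, -0.14 ± 0.10. Of 14 tested genes of Atf4, a transcription factor of the amino acid response known to activate Phgdh and Psat1 in cultured human and mouse cells, and its response genes, 2 passed and both were lower. Slc7a11, the cystine-glutamate exchanger, averaged 66.5 ± 2.71 CPM in 2X cytokine and 102 ± 16.9 CPM in 2X PBS (-0.58 ± 0.12, edgeR adjusted p = 0.0123). Nupr1, a stress-response gene, averaged 24.0 ± 6.00 CPM in 2X cytokine and 40.7 ± 2.87 CPM in 2X PBS (-0.77 ± 0.18, edgeR adjusted p = 0.0179). Atf4 itself had -0.04 ± 0.10 and Asns -0.06 ± 0.29, and neither passed. Of the 14 genes 1, Vldlr, had a positive log2 fold change in the fit of 12 libraries. The medians in the fit of 12 libraries were 0.12 for breakdown and conversion, 0.11 for the glycolytic enzymes and -0.07 for other carriers. They were -0.09 for the Atf4 list and -0.13 for the folate list, against 0.45 for the 9 genes.

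**Figure D5:**
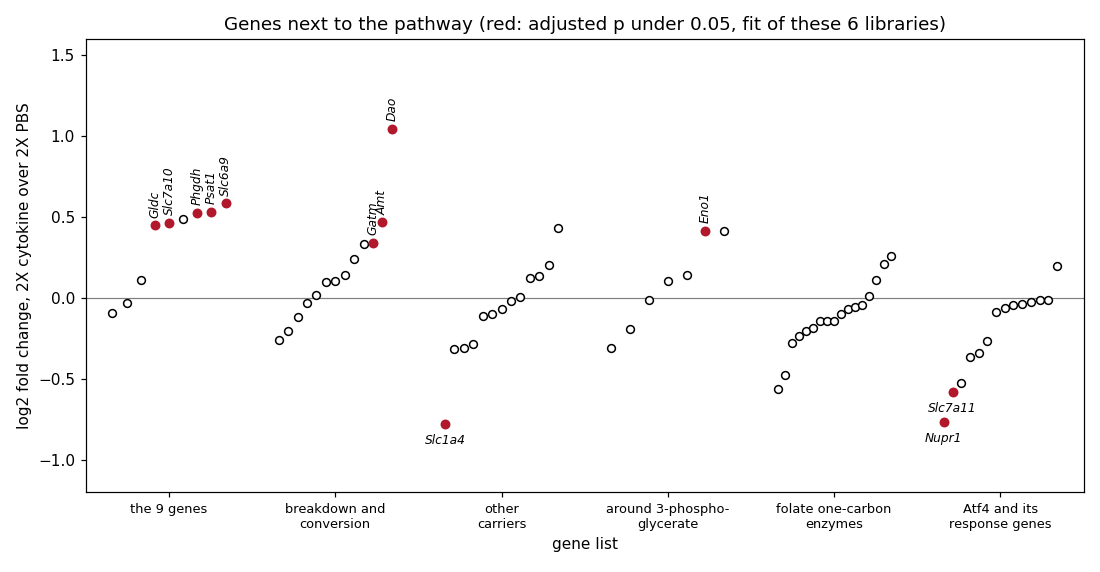
Log2 fold change, 2X cytokine over 2X PBS in the fit of these 6 libraries, of the 9 genes and of 5 lists of neighbouring genes, each point 1 gene. Red points have an adjusted p under 0.05, and Slc1a4, Slc7a11 and Nupr1 are the red points below 0.

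The balance of mitochondrial to cytosolic hydroxymethyltransferase was not shown to differ. The geometric mean of Shmt2 over Shmt1 in TPM was 6.48 in 2X cytokine, against 9.39 in 2X PBS. It was 10.1 in 1X cytokine, against 8.05 in 1X PBS. Of 4 pairs of groups compared, the lowest 2-sided exact permutation p was 0.4 and all adjusted values were 0.8, where 3 against 3 libraries cannot go below 0.1. Shmt1 was the gene with the fewest counts.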

How the data were processed

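Per the labels' protocols, reads of SMART-Seq2 libraries were pseudoaligned by kallisto 0.46.1 to mouse transcripts of GRCm38. The deposited files give, for 142604 transcripts, estimated counts, which are not normalised between libraries, TPM, which the authors' tool scaled to a fixed sum in each library, and effective lengths, which are other values and entered 1 alternative. Per the labels' protocols the authors tested genes with DESeq2, whose output did not enter here. Summing the deposited estimated counts over each gene's transcripts gave 55401 genes, rounded to whole numbers. No source used here says whether counting used strand, so antisense and overlapping genes cannot be told apart.

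Genes were tested with edgeR 4.0.16 (R 4.3.3, quasi-likelihood F test, filterByExpr, TMM), with 1 coefficient for each of the 4 groups and all 12 libraries in one fit, without a replicate block. The p-values were adjusted by Benjamini-Hochberg across all 14490 genes and called under 0.05, and SE is the log2 fold change over the root of F. The 5 comparisons, the alternatives (RLE scaling, other filters, DESeq2 1.42.0, voom weights and limma-trend on log2 TPM with limma 3.58.1, effective length offset, replicate block, libraries of the comparison alone, libraries left out) and the lists are given with the results. The members, lists and alternatives were chosen with earlier results of these data known. All 9 members are named in every comparison, and from each list the genes past the threshold and up to 4 others with the smallest adjusted p, of which some are given, plus Gcsh, Dld, Gapdh, Pgk1, Mthfd1, Aldh1l1, Atf4 and Asns, which were chosen for their role after their values were seen. The procedure was tested on simulated counts.

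CPM is on TMM-scaled library sizes. The limit that a count of 0 allows (3 counts) is 0.543 to 1.60 CPM by library, here on library totals without TMM scaling. This limit covers counting error only, since PCR copies were not separated. Gene positions are those of GENCODE M21 and promoters those of RefSeq, both on GRCm38. ATAC-seq samples (19) were not analysed here.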

Additional observations from a re-analysis of the deposited data

How the results depend on the processing

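In the fit of 12 libraries the count of the 9 genes past the threshold stayed at 0 in all 23 alternatives for 2X cytokine against 1X cytokine, and moved in some for the other 4 comparisons. For 1X cytokine against 1X PBS the count of 0 became 5 with voom weights, 2 without 1X PBS replicate 1 and 6 without the first library of both 1X labels. For 2X cytokine against 2X PBS it became 1 with voom weights, 5 with the libraries of the comparison alone and 4 without the first 1X libraries. For 2X PBS against 1X PBS it became 4, 2 and 4 under the settings named for the 1X groups, and for the difference of the responses it became 4 without the first 1X libraries. Over single libraries left out, counts ran from 0 to 2 for 1X cytokine against 1X PBS and for 2X PBS against 1X PBS, and stayed at 0 for the other comparisons. In the fit of the 6 libraries of the 2X comparison, the count of 5 was 1 with limma-trend on log2(TPM + 1) and 4 each time a library was left out. The log2 fold change of Phgdh in 2X PBS against 1X PBS, -0.05, kept its sign in 16 of 23 alternatives. With all libraries kept it was 0.70 with voom weights, 0.39 with limma-trend on TPM at a pseudocount of 1, 0.40 at one of 0.1, and 0.05 with the replicate block. It was 0.80 without both first libraries, and ran from -0.35 to 0.80 over single libraries left out, the last without 1X PBS replicate 1. Without both first libraries, the difference of the responses was -0.80 for Phgdh, -0.95 for Slc6a9 and -0.22 for Psat1, against 0.24, 0.32 and 0.33 with all. It was also below 0 for these 3 genes, and not called, without 1X PBS replicate 1 alone (-0.61, -0.60 and -0.06) and with voom weights (-0.57, -0.67 and -0.12). The cause was not tested. Shmt1 rested on 4 to 27 counts a library.

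Same-numbered libraries had correlations of their deviations across genes of -0.62 to -0.29 between the 1X groups, -0.07 to -0.01 between the 2X groups, -0.02 to 0.16 between the cytokine groups and -0.08 to -0.03 between the PBS groups. No comparison had all 3 over 0.1, so no pairing by number was seen. In the 1X groups the first library of each label stood apart in opposite directions. The measure therefore cannot exclude a pairing. With the replicate block, 0 of 9 genes passed in each of the 5 comparisons of the fit of 12 libraries, where 0 to 2 of all genes did, and 4 passed in the fit of 6, where 794 of 13765 genes did.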
